A study of Mus musculus with 41 samples.

Results

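Messenger RNA of 50 cell division genes, 20 that act in S phase and 30 that act in mitosis, was followed in mouse mesothelioma. The genes were taken by name from a fixed list with no rule on their values, but that list was chosen with earlier results of these data known. All 50 were among the 27197 genes counted. The study placed conditional alleles of tumor suppressor genes in mice of mixed background (FVB, Bl6, 129Ola). These alleles were deleted by injecting adenovirus that carried Cre into the pleural space. Cre was driven by the ubiquitous CMV promoter, so that any cell type reached in that space could recombine. At the Cdkn2ab locus only p19Arf was conditional, while Ink4a and Ink4b were already missing from the germline. Cyclosporine A was given around the infection. BNC cell lines (JB81, JB91, and JB97) are labelled Bap1-/-;Nf2-/-;Cdkn2ab-/- and NC lines (JB84, JB87, and JB93) Nf2-/-;Cdkn2ab-/-. By label both groups thus lack Nf2 and the Cdkn2ab genes, and the controls are tumor lines too. Each line grew out of a piece of primary tumor and was used at early passage. A further 9 RNA libraries are of mesothelioma tumors, which the labels give as BNC and NC tumors. Their column names do not show which is which, so the tumors were set against the lines only as a whole, and 1 of them (no. 22) carries a library number but no tumor number.

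A cell that commits to divide switches its genes on in waves. At the G1/S border, E2F transcription factors that are freed from RB family proteins drive the genes of DNA replication: cyclin E, the proteins that load the MCM helicase onto origins, and the enzymes that make deoxynucleotides. Genes of mitosis follow in G2, when MYBL2 with the MuvB complex and FOXM1 act on promoters that carry a cell cycle homology region (CHR) and CCAAT boxes. CDK1 with cyclin B starts mitosis, the spindle checkpoint holds chromosomes until all are attached, and kinesins and midzone proteins separate them and divide the cell. Cdkn2a and Cdkn2b encode inhibitors of the CDK4/6 kinases that act on RB (Ink4a, Ink4b) and the p53 activator p19Arf, and the labels give these genes as deleted in every line and tumor.

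Promoters of the members were searched for short words known from these waves. The last 120 bases before the RefSeq start site are shown for a pair of S-phase genes that hold E2F words and for 3 mitotic genes that hold the CHR word. Capitals mark words found on either strand: E2F words (TTCCCGC or TTGGCGC), the CHR word (TTTGAA, or TTCAAA when read on the other strand), and the CCAAT box (CCAAT or ATTGG). All are from GRCm38.p6, written 5′ to 3′ in the direction of the gene, and start sites of different transcripts can lie elsewhere.
Mcm6, chr1:128359706-128359825, minus strand: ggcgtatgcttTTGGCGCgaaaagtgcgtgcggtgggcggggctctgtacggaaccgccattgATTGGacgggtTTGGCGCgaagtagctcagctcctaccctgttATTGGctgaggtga
Rrm1, chr7:102441575-102441694, plus strand: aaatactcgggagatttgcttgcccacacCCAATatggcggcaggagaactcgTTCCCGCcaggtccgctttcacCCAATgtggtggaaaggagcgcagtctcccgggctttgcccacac
Cdk1, chr10:69352913-69353032, minus strand: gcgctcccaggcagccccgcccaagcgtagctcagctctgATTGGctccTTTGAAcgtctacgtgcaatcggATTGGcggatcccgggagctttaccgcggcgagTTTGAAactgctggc
Mki67, chr7:135716380-135716499, minus strand: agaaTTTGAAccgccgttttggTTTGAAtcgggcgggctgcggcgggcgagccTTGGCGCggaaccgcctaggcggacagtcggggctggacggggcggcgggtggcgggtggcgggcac
Top2a, chr11:99024190-99024309, minus strand: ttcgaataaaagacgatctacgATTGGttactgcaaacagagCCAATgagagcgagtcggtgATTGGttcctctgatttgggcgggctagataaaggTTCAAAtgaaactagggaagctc
Counted over windows of 300 bases (250 before and 50 after the start), the CHR word was in 2 of 16 S-phase genes with a RefSeq window and in 18 of 24 mitotic genes, against 11.6% of the 9603 genes tested in the lines that had one. CCAAT was in 10 of 16 S-phase and 18 of 24 mitotic windows, against 39.3% of the 9603. An E2F word was in 8 of 16 S-phase and 3 of 24 mitotic windows, against 12.7%. On the other strand the word TTGGCGC reads GCGCCAA, which can share bases with a CCAAT box. A match is only a word in the sequence, and no binding was measured here.

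The 6 lines had between 12377675 and 23936922 counted reads and the tumors between 8158740 and 21851974. Values are CPM, read counts brought to a common library size with TMM scaling, which also corrects for RNA composition. Bap1, the gene deleted in BNC, was at 43.2, 44.1 and 38.0 CPM in JB81, JB91, and JB97 and at 61.5, 60.7 and 64.3 CPM in JB84, JB87, and JB93, so no BNC line reached any NC line. Reads of the undeleted exons remain in such a count. Nf2, deleted by label in both groups, was still at 88.3 to 123 CPM over the 6 lines, so its level alone cannot show the deletion. Cdkn2a was at most 0.567 CPM and Cdkn2b at most 0.0515 CPM in any line. Of the mesothelial markers, Wt1 and Vim were read in every line. Krt8, Krt18, Msln, and Pdpn were under 1 CPM in JB81 and JB91, although the labels call these lines mesothelioma cells. JB81 and JB91 were nearly alike over all genes (5 of 10511 genes differed over 2-fold), as were JB84 and JB93 (8 of 10545). Within these pairs the mean squared difference between lines was 14.5 and 21.3 times what counting reads alone would give. For all other pairs of lines it was 106 (JB97 and JB87) to 448 times (JB91 and JB93). Lines of a close pair also carry different run numbers in their column names. Separate tumors and repeat cultures of 1 tumor cannot be told apart by these values, and the lines were counted singly because the labels list them as separate samples. Nothing in the labels says that the lines of a group came from different mice, and p-values measure the spread between these lines only.

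No cell division gene was called between BNC and NC lines. To be called, a gene had to change more than 2-fold with an adjusted p-value below 0.01 (quasi-likelihood test of edgeR, Benjamini-Hochberg adjustment over 12376 genes, 3 lines against 3). By this rule 0 of 20 S-phase and 0 of 30 mitotic genes were called, against 0.444% of all genes called higher in BNC and 1.10% in either direction. DESeq2 called 0 as well, where it called 5.88% of all genes higher, and so did a model of all 15 libraries (0.702% higher). Without the fold threshold, 0 of 50 genes passed an adjusted p of 0.05 (edgeR), against 5.78% of all genes higher in BNC lines. At an unadjusted p under 0.05, 1 S-phase gene and 7 mitotic genes were higher in BNC lines by edgeR, against 15.9% of all genes. Mean expression was nevertheless above that of NC lines for 49 of 50 genes, with E2f2 the exception, and for 49.8% of all genes. The median log2 fold change (BNC minus NC) was 1.12 over the S-phase genes and 0.96 over the mitotic genes, against -0.0023 over all genes. The lowest BNC line exceeded the highest NC line in 8 of 20 S-phase and 12 of 30 mitotic genes, against 20.1% of all genes. In such bulk RNA, fewer dividing cells and less RNA in each dividing cell cannot be told apart.

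**Figure D1:**
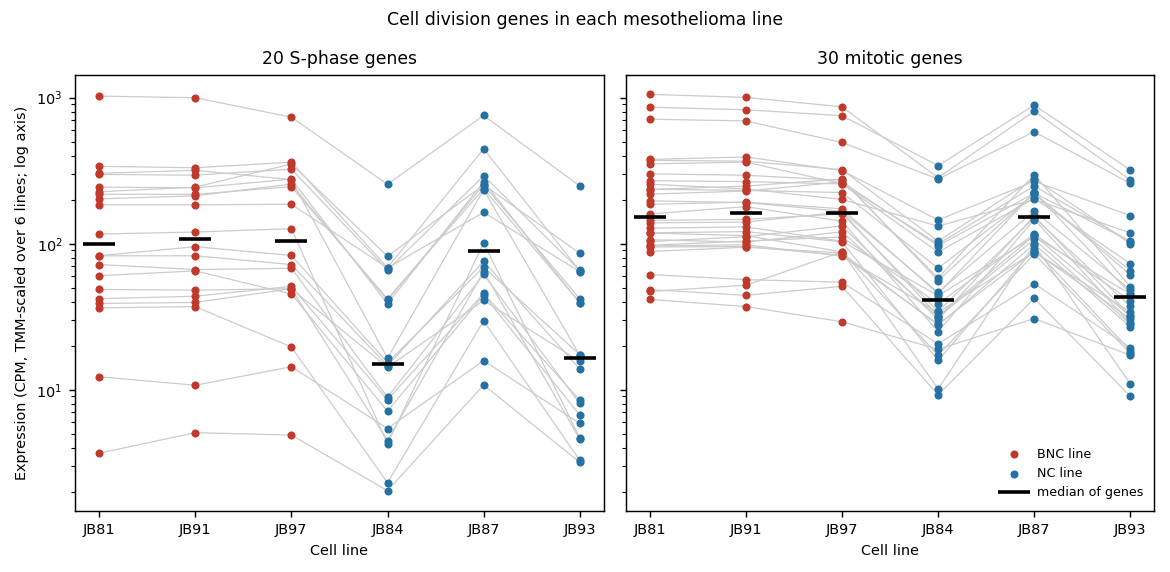
Each point is a gene in a cell line, on a log axis of TMM-scaled CPM, with S-phase genes on the left and mitotic genes on the right. Grey lines join the values of a gene and black bars are the medians of the genes. BNC lines are red and NC lines blue. The NC lines JB84 and JB93 sit below the other lines, and the NC line JB87 sits at the height of the BNC lines.

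Among the 4 G1/S regulators, E2f1, a transcription factor that turns on replication genes (chr2:154559407-154569892), was at 48.6, 48.1 and 49.2 CPM in JB81, JB91, and JB97 and at 14.3, 40.9 and 15.6 CPM in JB84, JB87, and JB93. BNC lines lay close together above all NC lines, and JB87 was nearer to them than to its own group. The log2 fold change was 1.05 (SE 0.43), with an adjusted p of 0.139 in edgeR. Cyclin E1 (Ccne1, chr7:38097984-38107534), which activates CDK2 for S-phase entry, was at 36.4, 37.1 and 19.6 CPM in BNC and 2.31, 29.7 and 3.28 CPM in NC lines, so that JB87 lay above JB97 and the groups overlapped. Its log2 fold change of 1.41 had a large error (SE 0.99, adjusted p = 0.341, edgeR). The other cyclin E gene, Ccne2, did not overlap, at 72.0, 66.6 and 67.9 CPM against 8.89, 61.7 and 8.06 CPM. E2f2, a close relative of E2f1, was the only member whose BNC mean was the lower (-0.22 on the log2 scale, SE 0.64). It was also the lowest S-phase gene per length, at a mean of 0.932 CPM per kilobase of exon in BNC lines, and read 10.8 CPM in JB87 against 3.68 to 5.08 CPM in BNC lines.

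The 11 genes of origin licensing and the replicative helicase all had a higher BNC mean, from 0.47 (Gins1) to 1.74 (Mcm5) on the log2 scale. Cdt1, which loads the MCM ring with Cdc6, had the smallest p of them (chr8:122568015-122573554). It was at 82.8, 95.4 and 83.2 CPM in the BNC lines and at 15.3, 69.2 and 17.4 CPM in JB84, JB87, and JB93. JB87 was below the BNC lines but far above its fellow NC lines, and the log2 fold change was 1.36 (SE 0.61, adjusted p = 0.166, edgeR). Mcm2, a subunit of the helicase ring (chr6:88883474-88898780), was at 227, 244 and 352 CPM in BNC and 81.9, 253 and 86.0 CPM in NC lines. Here JB87 fell inside the BNC range, and the log2 fold change was 0.97 (SE 0.49, adjusted p = 0.209, edgeR). Another ring subunit, Mcm5, spanned 19.4-fold over the lines, from 16.4 CPM in JB84 to 318 CPM in JB91. Together with Cdt1 and Gins2, a subunit of the GINS complex that joins the helicase, Mcm5 lies on chromosome 8. The 690 genes of that chromosome had a median log2 fold change of 0.41, and its 3 members one of 1.55. The 17 S-phase genes on other chromosomes kept a median of 1.09.

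Of the sliding clamp and the enzymes of nucleotide supply, Pcna, the clamp that holds DNA polymerases (chr2:132249162-132253314), was at 185, 185 and 186 CPM in BNC lines and 68.3, 164 and 64.4 CPM in NC lines. The BNC values were nearly equal, and JB87 was close under them (log2 fold change 0.91, SE 0.39, adjusted p = 0.152, edgeR). Thymidine kinase 1 (Tk1), which salvages thymidine, had the widest range of all members over the lines (29.7-fold). Its values were 117, 120.2 and 127 CPM in BNC lines and 4.27, 101 and 4.68 CPM in NC lines, so it was low only in JB84 and JB93. Rrm1 and Rrm2 are the subunits of ribonucleotide reductase. Rrm2 had the highest level per length of the S-phase genes, with a mean of 124 CPM per kilobase of exon in BNC lines, and was higher in JB87 (447 CPM) than in any BNC line (331 to 362 CPM). Rrm1 was at 1025, 999 and 736 CPM in BNC and 255, 755 and 248 CPM in NC lines, and JB87 lay above JB97.

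Foxm1 and Mybl2, the transcription factors of the mitotic wave, overlapped between the groups. Foxm1 (chr6:128362967-128376146) was at 219, 229.5 and 265 CPM in JB81, JB91, and JB97 and at 96.9, 222 and 104 CPM in JB84, JB87, and JB93. Only JB84 and JB93 were low (log2 fold change 0.75, SE 0.35, adjusted p = 0.175, edgeR). Mybl2 was highest in the NC line JB87, at 98.5 CPM, against 47.1 to 88.1 CPM in BNC lines.

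Of CDK1, its cyclins, and its phosphatase, Cdk1 (chr10:69335146-69352938), the kinase that drives entry into mitosis, was at 235, 248 and 278 CPM in BNC lines and at 56.0, 222 and 61.4 CPM in NC lines. BNC lines were above all NC lines, JB87 by a small margin, and the log2 fold change was 1.17 (SE 0.56, adjusted p = 0.189, edgeR). Cyclin B1 (Ccnb1, chr13:100778650-100786570), its partner, was at 197, 191 and 167 CPM in BNC and 46.5, 167 and 48.3 CPM in NC lines, and JB87 was just above JB97 (log2 fold change 1.08, SE 0.53, adjusted p = 0.197, edgeR). Cdc25c, the phosphatase that removes an inhibitory phosphate from CDK1, had the lowest level per length of the mitotic genes, 7.31 CPM per kilobase of exon in BNC lines. It read 41.6, 37.1 and 29.2 CPM in BNC and 18.9, 30.7 and 17.2 CPM in NC lines. The log2 fold change was smaller than that of its partners, 0.69, but so was the error (SE 0.28, adjusted p = 0.132, edgeR).

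The 6 mitotic kinases and checkpoint genes had log2 fold changes between 0.68 (Aurka) and 1.27 (Plk1), and only Ttk, a kinase at the top of the spindle checkpoint (chr9:83834689-83872389), did not overlap. Its values were 48.5, 44.3 and 51.1 CPM in BNC lines and 9.23, 42.2 and 9.02 CPM in NC lines. It was about as high in JB87 as in JB91 (log2 fold change 1.26, SE 0.64, adjusted p = 0.209, edgeR). Cdc20, which activates the ubiquitin ligase that ends metaphase, had the highest level per length of the mitotic genes (98.5 CPM per kilobase of exon in BNC lines) and was highest of all lines in JB87, at 225 CPM. Of the chromosomal passenger complex, which corrects faulty attachments, Cdca8 (chr4:124918465-124939311) was at 95.0, 95.7 and 83.4 CPM in BNC and 28.2, 88.3 and 30.6 CPM in NC lines (log2 fold change 0.90, SE 0.47, adjusted p = 0.215, edgeR). JB87 again lay within the BNC range, and Aurkb and Birc5, the kinase and another subunit of the complex, were higher in JB87 than in every BNC line.

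At the centromere and kinetochore, Cenpe, a motor that brings chromosomes to the spindle equator (chr3:135212537-135273611), was at 270.4, 266 and 257 CPM in BNC lines and 87.7, 204 and 73.1 CPM in NC lines. All BNC lines were above all NC lines, with JB87 between the BNC lines and the other two (log2 fold change 1.12, SE 0.40, adjusted p = 0.107, edgeR). Cenpf had the smallest fold change of the mitotic genes, 0.62 (SE 0.24), and the smallest range over the lines, 2.16-fold.

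Of the 7 spindle motors and proteins of the midzone and cytokinesis, 6 were higher in BNC without overlap, against 20.1% of all genes. Kif20a, a kinesin that takes the passenger complex to the midzone, had the smallest adjusted p of all members (0.0677, edgeR, log2 fold change 0.94, SE 0.27). Its values were 378, 393 and 317 CPM in BNC lines and 145, 267 and 156 CPM in NC lines. In JB87 it was lower than in the BNC lines by more than any other mitotic gene, with a BNC mean 1.36 times the JB87 value. Kif2c, a kinesin that takes microtubules apart at centromeres, had the largest mitotic fold change (1.44, SE 0.70). It ranged from 15.9 CPM in JB84 to 121 CPM in JB91.

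Mki67, which encodes the proliferation antigen Ki-67 (chr7:135689784-135716361), was at 1054, 1005 and 866 CPM in JB81, JB91, and JB97 and at 284, 808 and 273 CPM in JB84, JB87, and JB93. The groups did not overlap, although JB87 was near JB97 (log2 fold change 1.10, SE 0.46, adjusted p = 0.147, edgeR). Top2a, the topoisomerase that untangles chromosomes (chr11:98992943-99024189), was at 861, 827 and 753 CPM in BNC and 343, 889.8 and 319 CPM in NC lines. JB87 was the highest line of all (log2 fold change 0.65, SE 0.42, adjusted p = 0.305, edgeR).

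**Figure D2:**
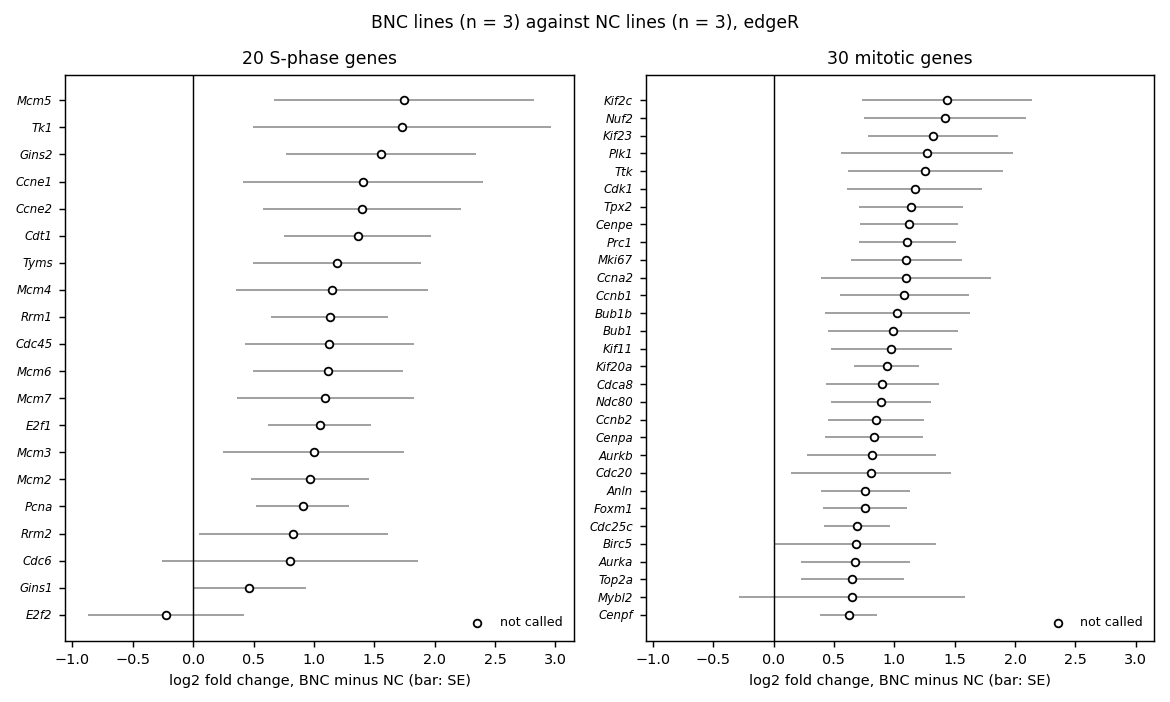
Points are edgeR log2 fold changes of BNC against NC lines (3 against 3) for the 20 S-phase genes (left) and 30 mitotic genes (right), sorted by size, and bars are standard errors. Open points are genes not called, which here are all of them. All but E2f2 lie to the right of 0, and E2f2 lies at -0.22.

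The NC lines did not lie together. JB84 and JB93 were the lowest lines in all 50 genes. The BNC mean was a median of 5.42 times the JB84 value over the S-phase genes (from 2.24 for E2f2 to 28.4 for Tk1), and 5.35 times the JB93 value. Over the mitotic genes it was a median of 3.40 times JB84 (from 1.75 for Cenpf to 7.20 for Kif2c), and 3.55 times JB93. Against JB87 the median ratio was 1.05 for S-phase and 1.08 for mitotic genes. JB87 lay within the range of the BNC lines for 8 S-phase and 12 mitotic genes, above it for 4 and 6, and below it for 8 and 12. Between the NC lines JB84 and JB87, 47 of 50 members differed more than 2-fold, against 22.1% of the 10393 genes with at least 100 reads in that pair. Between JB97 and JB87, of different genotype, 1 of 50 did, against 11.9% of 10404 genes.

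Leaving out each line in turn showed how far the comparison rests on JB87. Without it, 19 of 20 S-phase and 28 of 30 mitotic genes were called higher in BNC by edgeR (adjusted p under 0.01 and over 2-fold), with 9.90% of all genes called higher, and the median log2 fold changes became 2.45 and 1.81. E2f2, Cenpf, and Cdc25c were not called. The NC arm was then JB84 and JB93, which were nearly alike, so the spread behind these calls in NC is close to that of 1 line. With JB81 and JB91 summed and JB84 and JB93 summed, 0 of 50 members and 0 of all 12859 genes tested were called (edgeR). Leaving out any other line gave 0 calls among the 50 genes, also without JB97, where 3.26% of all genes were called higher. Without JB81, only 1 of all 12919 genes was called. Without JB91, JB84, or JB93, 0 of all 12929, 12756 and 12759 genes were called. In these fits the lack of calls is thus not particular to the members. Column names carry a number shared by several libraries, read here as a sequencing run. Within the run of JB81, JB84, and JB87 the median log2 difference of BNC minus NC was 1.10 over S-phase and 0.92 over mitotic genes, and within the run of JB91, JB97, and JB93 it was 2.40 and 1.78, each time with 1 line in an arm. On the scale of all 15 libraries, the mesothelial marker Vim was lowest in JB84 and JB93 (1227 and 1258 CPM against 4241 to 11940 CPM in the other lines). Msln was highest there (1924 and 2015 CPM against 0.206 to 842 CPM), and so was Krt19 (291 and 312 CPM against 0.616 to 260 CPM). The other mesothelial markers did not split the lines in this way. Krt8, Krt18, Upk3b, and Pdpn were highest in JB87, and Wt1 was lowest in JB93 and JB97. What part such differences between the lines have in the result was not tested.

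Further genes of the same processes were also counted. Of 22 other replication genes, edgeR and DESeq2 called 0, 2 were higher at an unadjusted p under 0.05 (edgeR), and 21 had a higher BNC mean (median log2 fold change 0.93). Without JB87, 19 of them were called higher by edgeR, against 9.90% of all genes. Orc6, a subunit of the origin recognition complex, was at 114, 109.5 and 79.3 CPM in BNC and 35.6, 75.0 and 35.4 CPM in NC lines (log2 fold change 1.06, SE 0.35, adjusted p = 0.0908, edgeR). Gins3, another GINS subunit, was at 17.5, 17.1 and 16.2 CPM against 4.75, 13.4 and 5.16 CPM (log2 fold change 1.13, SE 0.44, adjusted p = 0.127, edgeR). Both were lowest in JB84 and JB93. Of 30 other mitosis genes, edgeR called 0, while 6 were higher and 1 lower at an unadjusted p under 0.05, and 29 had a higher BNC mean (median log2 fold change 1.06). DESeq2 called 3 of them higher (Aspm, Cdca3, and Ncapd2), against 5.88% of all genes, and 1 lower (Pttg1), against 1118 of all 12376 genes. Without JB87, edgeR called 27 of them higher, against 9.90% of all genes, and 1 lower, against 1278 of all 13091 genes. By edgeR 2 higher and 1 lower passed an adjusted p of 0.05, which 14.2% of all genes did in either direction. Cdca3, a mitotic regulator, was at 140, 146 and 144 CPM in BNC and 39.2, 78.7 and 43.4 CPM in NC lines (log2 fold change 1.42, SE 0.29, adjusted p = 0.0317, edgeR). Pttg1, which encodes securin, the inhibitor of separase, went the other way. It was at 3.45, 3.45 and 2.53 CPM in BNC lines and 32.4, 14.7 and 40.2 CPM in NC lines (log2 fold change -3.21, SE 0.43, adjusted p = 0.0132, edgeR), so that it was highest in JB84 and JB93.

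Of the 14 genes of RB, the other E2F factors, and their partners, edgeR called 1, lower in BNC lines. It called 1.10% of all genes in either direction. The median log2 fold change of the 14 genes was 0.21. DESeq2 called 2 lower (Rb1 and Tfdp2) and 1 higher (Tfdp1), where it called 1118 lower and 728 higher of all 12376 genes. Without JB87, edgeR called 2 of the 14 lower and 4 higher, against 1278 lower and 1296 higher of all 13091 genes. The gene called by edgeR was Tfdp2, which encodes a dimerization partner of E2F proteins, at 31.2, 30.2 and 25.6 CPM in BNC and 73.2, 81.9 and 71.8 CPM in NC lines. Here the NC lines were alike, JB87 included (log2 fold change -1.38, SE 0.15, adjusted p = 0.00885, edgeR). The call was lost when any line other than JB87 or JB97 was left out (adjusted p from 0.0558 to 0.0757, edgeR), with the run as a covariate (0.0422), with the close pairs of lines summed (0.293), and with all 15 libraries in 1 model (0.147). Under every setting tried the log2 fold change lay between -1.30 and -1.52. Rb1, the RB gene itself, was at 15.3, 14.5 and 15.3 CPM in BNC lines and 48.6, 31.0 and 39.2 CPM in NC lines, with JB87 between (log2 fold change -1.40, SE 0.20, adjusted p = 0.0156, edgeR).

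Tumors had less RNA of most cell division genes than the lines. For this comparison the 15 libraries were scaled together, so CPM values of lines differ slightly from those above. By edgeR's quasi-likelihood test (9 tumors against 6 lines, 14383 genes tested, the same threshold), 13 of 20 S-phase genes were lower and 1 higher in tumors, and 26 of 30 mitotic genes were lower, against 12.4% of all genes called lower and 35.1% called in either direction. At an adjusted p of 0.05 with no fold threshold, 16 S-phase and 30 mitotic genes were lower (edgeR), against 23.7% of all genes. The median log2 fold change (tumors minus lines) was -1.79 for the S-phase genes and -2.48 for the mitotic genes, against 0.17 over all genes. Every tumor was below every line in 2 S-phase and 9 mitotic genes, which 9.59% of all genes showed. The tumor median was below every line in 8 S-phase genes and in all 30 mitotic genes. All tumor libraries, and no line, carry another run number, so the run and the kind of sample cannot be told apart. Tumors also hold other cells. The summed CPM of 10 leukocyte markers was 396 to 1978 in tumors and 4.11 to 6.12 in lines, and Cd3e and Cd8a, which mark T cells, had no read in any line. Sums of 3 skeletal muscle markers were 116 to 33660 CPM in tumors and at most 4.24 CPM in lines. The part of these cells in the result was not tested.

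**Figure D3:**
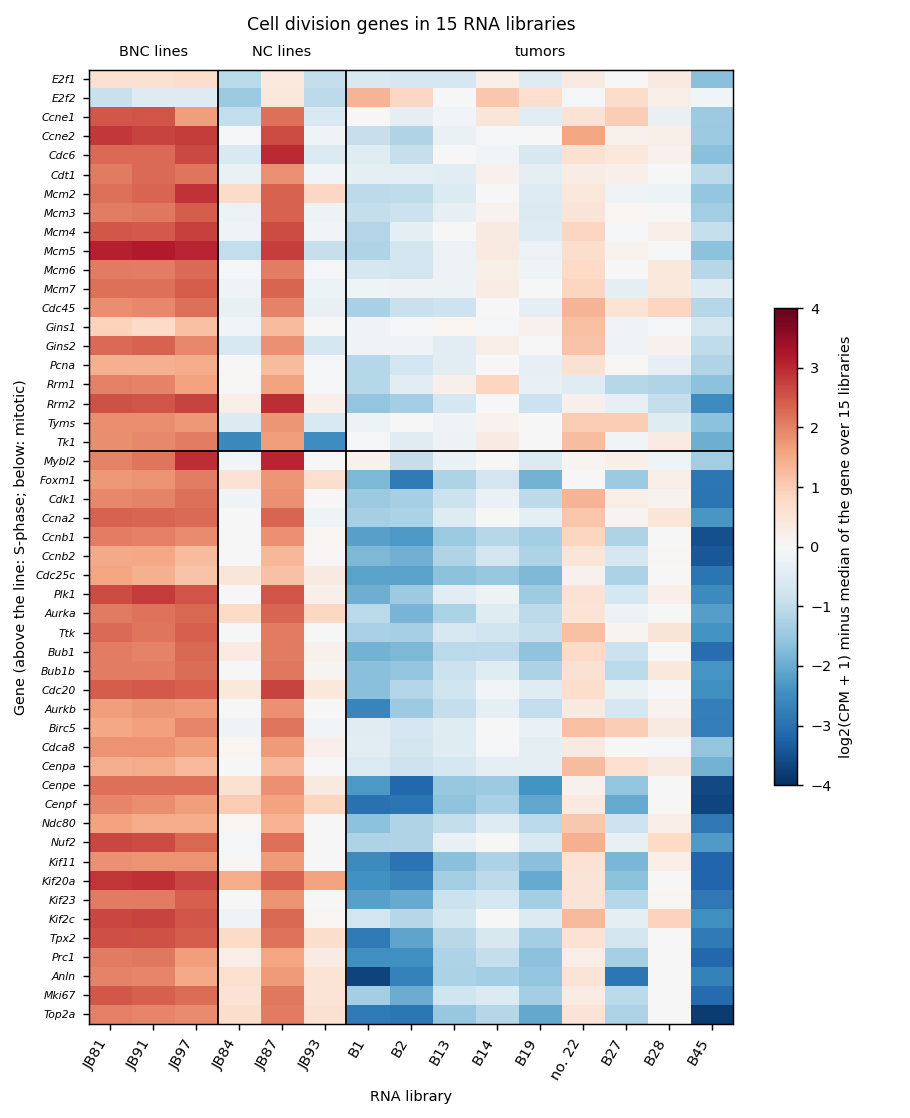
Rows are the 50 genes (20 S-phase above the line, 30 mitotic below), and columns are the 15 RNA libraries. Color gives log2(CPM + 1) minus the gene's median over the libraries, red for higher and blue for lower. The 3 BNC lines and the NC line JB87 are red in nearly every row, JB84 and JB93 are near white, and tumor B45 is the bluest column.

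Of the G1/S regulators, Ccne2 was called lower in tumors, with a lowest, median, and highest value of 2.40, 8.09 and 27.4 CPM over tumors and 7.55, 59.7 and 66.9 CPM over lines. JB84 and JB93 lay within the tumor range (log2 fold change -2.31, SE 0.57, adjusted p = 0.00303, edgeR). E2f2 was called higher, at 6.52, 12.1 and 20.1 CPM over tumors and 1.90, 4.07 and 10.1 CPM over lines (log2 fold change 1.31, SE 0.38, adjusted p = 0.00885, edgeR). Tumor B1 was the highest, and without it the adjusted p was 0.0144 (edgeR), above the threshold of 0.01, as it was with scaling by library size alone (0.0176, edgeR). Leaving out any line other than JB87 also ended this call, with adjusted p-values from 0.0178 to 0.0225 (edgeR). Ccne1 was at 1.29, 4.72 and 11.2 CPM over tumors and 2.15, 23.4 and 34.5 CPM over lines (log2 fold change -1.85, SE 0.56, adjusted p = 0.0114, edgeR) and was not called.

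Of the origin licensing and helicase genes 9 of 11 were called lower, namely Cdc6, Cdt1, Gins2, and the 6 MCM subunits Mcm2 to Mcm7. Mcm2 had the smallest adjusted p of all members. It was at 14.7, 31.0 and 61.7 CPM over tumors and 76.3, 219 and 341 CPM over lines, so that no tumor reached any line (log2 fold change -2.53, SE 0.36, adjusted p = 4.04e-05, edgeR). Of the genes of the clamp and nucleotide supply, Pcna, Rrm1, and Rrm2 were called lower. Rrm2 was at 8.37, 28.2 and 60.2 CPM over tumors and 60.9, 311 and 418 CPM over lines, without overlap but with no. 22 just below JB93 (log2 fold change -2.99, SE 0.48, adjusted p = 1.09e-04, edgeR). Pcna was at 26.7, 49.7 and 96.3 CPM over tumors and 60.4, 162 and 181 CPM over lines, where 3 tumors lay above the lowest line (log2 fold change -1.37, SE 0.32, adjusted p = 0.00187, edgeR). Tk1 was not called. It was above JB84 and JB93 in every tumor, at 6.75 to 69.8 CPM against 3.98 and 4.39 CPM in these lines.

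Among mitotic genes, both transcription factors were called lower in tumors. Foxm1 was at 7.40, 21.7 and 73.9 CPM over tumors and 90.3, 205 and 257 CPM over lines, with no overlap (log2 fold change -2.60, SE 0.48, adjusted p = 3.40e-04, edgeR). Of CDK1 and its partners, Ccna2, Ccnb1, Ccnb2, and Cdc25c were called lower. Ccnb1 was at 2.87, 16.2 and 78.1 CPM over tumors and 43.3, 159 and 183 CPM over lines, and only tumor no. 22 was above the lowest line (log2 fold change -2.46, SE 0.59, adjusted p = 0.00234, edgeR). Cdc25c was at 0.740, 3.24 and 14.03 CPM over tumors and 16.1, 28.5 and 38.6 CPM over lines (log2 fold change -2.43, SE 0.52, adjusted p = 0.00113, edgeR), so all tumors were below all lines. Cdk1 itself, at 6.80, 31.3 and 150.2 CPM over tumors and 52.2, 213 and 269 CPM over lines, just missed the threshold (log2 fold change -1.83, SE 0.55, adjusted p = 0.0104, edgeR). Tumor no. 22 was far above the other tumors in this gene, and without it the adjusted p was 0.00145 (edgeR).

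All 6 mitotic kinases and checkpoint genes (Plk1, Aurka, Ttk, Bub1, Bub1b, and Cdc20) were called lower. Aurka, a kinase of the spindle poles, was at 3.79, 9.50 and 31.2 CPM over tumors and 36.2, 93.8 and 109 CPM over lines (log2 fold change -2.57, SE 0.43, adjusted p = 1.57e-04, edgeR). In the passenger complex, Aurkb and Cdca8 were called and Birc5 was not. Cdca8 was at 7.72, 18.9 and 32.3 CPM over tumors and 26.2, 81.6 and 88.9 CPM over lines (log2 fold change -1.71, SE 0.32, adjusted p = 4.32e-04, edgeR). Of the centromere and kinetochore genes, Cenpe, Cenpf, and Nuf2 were called, while Cenpa and Ndc80 were not. Cenpe was at 3.42, 17.6 and 60.8 CPM over tumors and 68.5, 219 and 251 CPM over lines, with all tumors lower (log2 fold change -3.05, SE 0.58, adjusted p = 4.31e-04, edgeR).

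All 7 spindle motors and midzone and cytokinesis genes (Kif11, Kif20a, Kif23, Kif2c, Tpx2, Prc1, and Anln) were called lower. Kif20a had the largest fold change of the members, at 4.35, 14.7 and 69.0 CPM over tumors and 135, 278 and 365 CPM over lines (log2 fold change -3.53, SE 0.55, adjusted p = 9.04e-05, edgeR). No tumor reached any line. Mki67 was at 20.1, 84.2 and 216 CPM over tumors and 256, 797 and 979 CPM over lines (log2 fold change -2.75, SE 0.46, adjusted p = 1.62e-04, edgeR). Top2a was at 12.8, 68.2 and 278 CPM over tumors and 299, 749 and 831 CPM over lines (log2 fold change -2.77, SE 0.57, adjusted p = 8.51e-04, edgeR). In both, no tumor reached the lowest line, JB93.

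**Figure D4:**
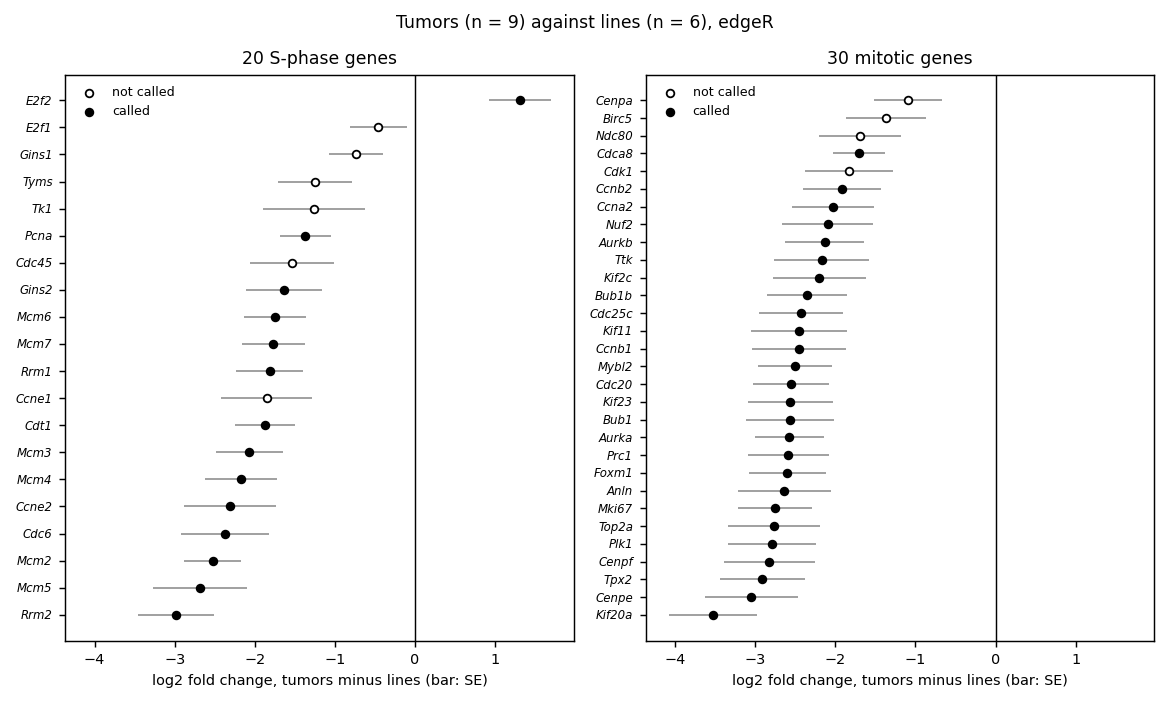
Points are edgeR log2 fold changes of 9 tumors against 6 lines for the 20 S-phase genes (left) and 30 mitotic genes (right), and bars are standard errors. Filled points are genes called (over 2-fold, adjusted p below 0.01). E2f2 is the only gene to the right of 0, and Kif20a lies farthest to the left at -3.53.

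How far tumors lay below the lines depended on the lines they were set against. Against BNC lines alone, 17 S-phase and 27 mitotic genes were called, all lower, with 10.8% of all genes called lower. Against NC lines alone, 2 S-phase genes (Mcm2 and Rrm2) and 4 mitotic genes (Kif20a, Mybl2, Aurka, and Mki67) were called, all lower, with 8.40% of all genes called lower. These comparisons share the tumors, and the difference between them was not tested. Over the S-phase genes, JB84 and JB93 were a median of 0.996 and 0.964 times the tumor median, and the other 4 lines between 5.31 and 5.72 times. Over the mitotic genes JB84 and JB93 were a median of 2.36 and 2.42 times the tumor median, and the others between 9.20 and 9.96 times.

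Tumors differed among themselves, with a wider range in mitotic than in S-phase genes. The highest tumor was a median of 4.96 times the lowest over the S-phase genes (from 2.66 for Mcm7 to 11.4 for Ccne2) and 15.7 times over the mitotic genes (from 3.62 for Mybl2 to 27.3 for Ccnb1). Tumor no. 22 was the highest of the 9 in 16 S-phase and 28 mitotic genes, and B28 was among the 2 highest in 25 mitotic but only 6 S-phase genes. B45 was the lowest in 18 S-phase and 29 mitotic genes. Mki67 read 20.1 CPM in B45, 176 CPM in B28, and 216 CPM in no. 22. For Rrm1 the order was another, with 428 CPM in B14 and 165 CPM in no. 22. Markers of other cell types differed between these tumors too. B45 had the highest sum of skeletal muscle markers (33660 CPM), but B19 and B1 were close (32650 and 32000 CPM), while their members stood at a median of 0.997 and 0.629 times the tumor median against 0.295 in B45. The sum of leukocyte markers was lowest in B28 and no. 22 (396 and 432 CPM), against 653 (B45) to 1978 CPM (B27) in the other tumors. Of the sum in B27, 1212 CPM came from S100a8 alone, which was at 1.04 CPM in B28 and 7.10 CPM in no. 22. B2 had 45530 CPM of 4 lung epithelium markers, against at most 76.7 CPM in the other tumors. In B1, 24.7% of the reads were on the gene Gm42418 and 13.8% on Lars2, against 7.18% and 3.61% in B13 and under 1% in the other tumors, and B1 had the fewest reads. What part these differences have was not tested.

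The balance of the S-phase and mitotic genes also differed. A score was taken as the mean of log2(CPM + 1) over the genes of each set. In the lines the mitotic score was above the S-phase score, with S-phase minus mitotic from -1.35 in JB84 to -0.62 in JB87. In 7 tumors it was below, with differences from 0.097 in B13 to 0.83 in B45, while in B28 it was -0.79, inside the range of the lines, and in no. 22 -0.59, just above that range. JB84 and JB93 were within the range of the tumors in the S-phase score (4.17 and 4.23) but above all tumors except no. 22 in the mitotic score (5.53 in both). The scores are a description and carry no test.

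**Figure D5:**
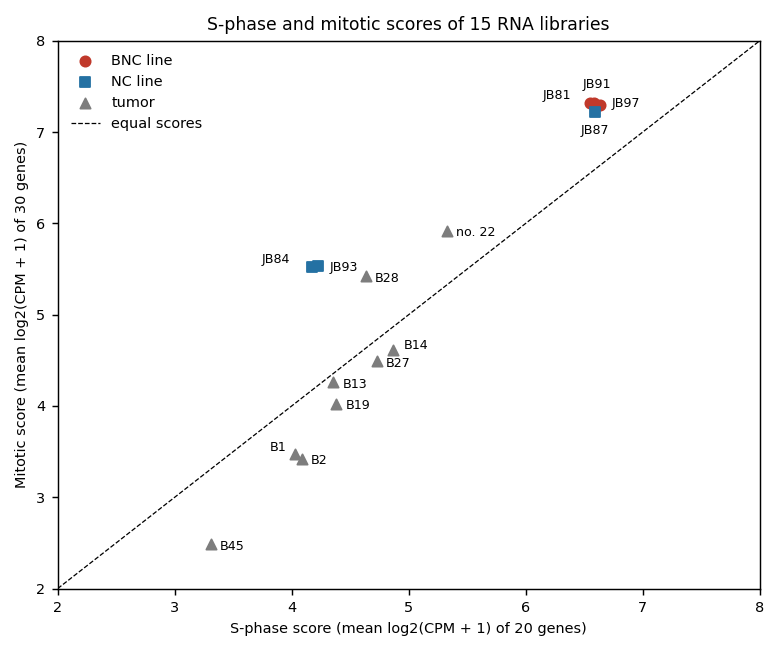
Each point is an RNA library, placed by its S-phase score (mean log2(CPM + 1) of 20 genes, horizontal) and its mitotic score (of 30 genes, vertical), with BNC lines as red circles, NC lines as blue squares, and tumors as grey triangles. The dashed line marks equal scores. Lines lie above it, as do no. 22 and B28, and the other 7 tumors lie below it.

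Other genes of these processes were lower in tumors as well. Of 22 other replication genes 16 were called lower and 0 higher, and of 30 other mitosis genes 26 lower and 0 higher. Of all genes, 12.4% were called lower. Orc1, a subunit of the origin recognition complex, was at 0.508, 2.39 and 5.55 CPM over tumors and 5.00, 22.4 and 26.95 CPM over lines (log2 fold change -2.89, SE 0.49, adjusted p = 1.72e-04, edgeR). Pola1, the catalytic subunit of DNA polymerase alpha, was at 4.94, 12.1 and 35.2 CPM over tumors and 25.6, 92.6 and 113 CPM over lines (log2 fold change -2.43, SE 0.43, adjusted p = 2.35e-04, edgeR). In both, the highest tumor was above the lowest line. Hmmr, which helps to build the spindle, was at 1.94, 9.17 and 33.7 CPM over tumors and 74.3, 179 and 222 CPM over lines (log2 fold change -3.67, SE 0.55, adjusted p = 6.77e-05, edgeR). Ect2, which starts cytokinesis by activating RhoA, was at 4.07, 20.0 and 46.6 CPM over tumors and 78.2, 211 and 281 CPM over lines (log2 fold change -3.27, SE 0.50, adjusted p = 7.62e-05, edgeR), and neither gene overlapped. Of the 14 genes of RB, E2F, and partners, 6 were called lower, against the same 12.4% of all genes. Tfdp1, the other dimerization partner of E2F, was at 20.1, 42.2 and 79.7 CPM over tumors and 116, 234 and 327 CPM over lines (log2 fold change -2.34, SE 0.32, adjusted p = 3.15e-05, edgeR). Lin54, the MuvB subunit that binds the CHR, was at 7.27, 13.03 and 23.1 CPM over tumors and 32.1, 36.7 and 40.3 CPM over lines (log2 fold change -1.33, SE 0.22, adjusted p = 1.41e-04, edgeR). In both genes every tumor was below every line.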

How the data were processed

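Poly-A RNA of 6 mouse mesothelioma lines and 9 tumors was sequenced from single ends. The authors aligned the reads to mm10 with TopHat2 (version 2.0.12), set aside nonprimary alignments and those with low mapping quality, and counted reads per gene with HTSeq. The deposited values are raw counts of 27197 Ensembl genes, used here as deposited. Whether counting used the strand is not given in the sources used here, so reads of antisense or overlapping genes cannot be told apart. Columns were matched to lines by name. Of the tumor columns, 5 carry numbers that also name tumors in the series' DNA copy number table, whose 14 columns of log2 values, as deposited, did not enter. A symbol was found for 98.5% of gene identifiers, and gene positions are of GRCm38 (GENCODE M21).

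The 50 genes and all other lists were chosen with earlier results of these data known. Counts were fitted with edgeR's quasi-likelihood test (version 4.0.16, R 4.3.3) over all genes that passed filterByExpr (minimum count 10), with TMM scaling and Benjamini-Hochberg adjustment. The fit was tested on simulated data. CPM are TMM-scaled, over the 6 lines for the lines and over all 15 libraries for tumors, marker genes, and scores, and levels between genes were divided by the union of exon lengths. Named were every called member, the member of each role with the smallest p, Mki67, Top2a, Cdk1, Ccnb1, Pcna, Mcm2, and Ccne1, and from each further list both genes with the smallest p. Other members were named after their values were seen. Promoter windows were matched by symbol to RefSeq (GRCm38.p6) for 40 of 50 genes. Those without an entry were Ccne2, Mcm4, Gins1, Gins2, Foxm1, Ccna2, Cdc25c, Aurkb, Kif20a, and Tpx2.

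Alternatives were DESeq2 (version 1.42.0), library size scaling, other filters, an adjusted p of 0.05, a replicate block, the run as a covariate, summing the close pairs of lines, all 15 libraries in 1 model, tumors against BNC or NC lines alone, and leaving out each line. Leaving out tumor B1, tumors B1 and B13, or tumor no. 22 was chosen after seeing the data. Replicates share no stated animal or day. Depth was 20231284 to 23936922 counts in BNC lines, 12377675 to 18999233 in NC lines, and 8158740 to 21851974 in tumors. On the TMM scale of all 15 libraries, 3 counts correspond to at most 0.872 CPM (tumor B1).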

Additional observations from a re-analysis of the deposited data

Results flagged for a closer look

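Among the 9 tumors, 50 values were tested for a tumor that lies far from the others, and 5 were, all of them in tumor no. 22. The 50 values are not those of the 50 cell division genes, since further replication genes are among them. Chance flags about 1 in 20 groups, and genes that vary together are not independent groups. Cdk1 was at 150.2 CPM in this tumor, Ccne2 at 27.4 CPM, and Gins2 at 25.5 CPM. Of the further replication genes, Orc1 was at 5.55 CPM and Pola1 at 35.2 CPM. In each, the gap to the next tumor was more than 0.493 of the range over all tumors. The flags do not list every member in which no. 22 stood apart. Gins1 was not flagged, at 13.9 CPM in no. 22 against 6.40 CPM in the next tumor, B19. Tk1 was not flagged either, at 69.8 CPM in no. 22 against 36.7 CPM in B28. In both genes the gap was also more than 0.493 of the range, so the lack of a flag does not mean that they failed this rule. No. 22 is the tumor whose column carries no tumor number. Leaving it out raised the calls in tumors against lines from 14 to 15 S-phase genes and from 26 to 29 mitotic genes, and the genes called lower over all genes from 1780 of 14383 to 1838 of 14191.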

How the results depend on the processing

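For BNC against NC lines, leaving out each line gave between 0 and 19 called S-phase genes and between 0 and 28 called mitotic genes, and every setting other than leaving out JB87 gave 0, DESeq2 included. Some of these settings called almost no gene at all: 1 of all 12376 genes with the run as a covariate, and 0 of all 12859 with the close pairs summed. The log2 fold change of E2f2 ranged from -0.62 (without JB84) to 0.82 when each line was left out, and it turned to higher in BNC without JB87 (0.82, adjusted p = 0.0861, edgeR) and with a replicate block in which JB97 took number 3 (0.13, adjusted p = 0.89, edgeR). Deviations from the group means correlated at 0.20 for number 1 (JB81 and JB84) and at -0.11 for JB97 and JB93. For number 2 they correlated at -0.11 and 0.13 (JB91 and JB97, both so numbered, with JB87). Each group holds a pair of nearly alike lines, which ties these correlations to each other. They cannot show whether the replicate numbers pair the lines. With the replicate block, in either numbering, 0 of 50 members and 0 of all 12376 genes were called. In these block fits Tfdp2 had an adjusted p of 0.137 (0.0440 with JB97 as number 3, edgeR). Median log2 fold changes were 0.92 (S-phase) and 0.75 (mitotic), or 1.66 and 1.25 with JB97 as number 3. Scaling by library size alone moved the median of all genes from -0.0023 to -0.14 and those of the members to 1.03 and 0.84. Tumors against NC lines alone gave 2 S-phase and 4 mitotic calls, and E2f1 was then higher in tumors (log2 fold change 0.16, adjusted p = 0.80, edgeR). Leaving out each line gave 12 to 14 S-phase and 23 to 28 mitotic calls in tumors. Without tumor B1 there were 12 and 24, and without B1 and B13 there were 11 and 19, while over all genes 1780 of 14383 were called lower with every tumor, 1566 of 14284 without B1, and 1471 of 14012 without both. The run could not be fitted as a covariate for tumors, which share no run with lines. The line comparison rests on 3 lines a group, and the member with the fewest reads in the lines was E2f2, down to 2.04 CPM in JB84.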
